A study of Equus caballus with 21 samples.

Results

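The 70 genes described here are the nuclear genes of oxidative phosphorylation that stood in the authors' 21-library expression table of laser-captured horse endometrium. They were chosen by name: every row whose RefSeq symbol was that of a subunit of complex I (NDUFA, NDUFB, NDUFC, NDUFS and NDUFV genes), complex II (SDH genes), complex III (UQCR genes and CYC1), complex IV (COX4 to COX8 genes) or complex V (ATP5 genes), out of 10307 genes in that table. The set held 32 genes of complex I, 3 of complex II, 8 of complex III, 10 of complex IV and 17 of complex V. Their read counts were taken from the authors' count table of 24942 gene IDs.

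Oxidative phosphorylation takes place in the inner mitochondrial membrane. Complexes I and II pass electrons from NADH and succinate to ubiquinone, complex III passes them on to cytochrome c, and complex IV hands them to oxygen. Complexes I, III and IV pump protons as they do so, and complex V, the ATP synthase, uses the returning protons to make ATP. Most subunits are encoded in the nucleus, and a small core set is encoded by mitochondrial DNA. In the uterine lining, the luminal epithelium faces the conceptus and the glands secrete the fluid that feeds it before it attaches, and both kinds of work use ATP.

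The samples came from uterine biopsies of healthy warmblood mares on day 12 after ovulation, which was induced with human chorionic gonadotropin in both states. Pregnant biopsies followed insemination and cyclic biopsies came from a cycle without it. Luminal epithelium (LE), glandular epithelium (GE) and stroma (S) were captured by laser from frozen sections, so each library came from 1 compartment of 1 biopsy. There were 5 cyclic and 4 pregnant LE libraries, 4 cyclic and 4 pregnant GE libraries, and 2 cyclic and 2 pregnant S libraries. Letters name the mares (B, C, J, M and U), and the same letter in several groups is the same animal. Mare J gave a cyclic LE library only, and only mare M gave stroma in both states. A single-cell kit was used because very little RNA was captured, and some had an extra amplification that the labels do not assign to libraries. In such bulk samples, fewer cells of a type and less RNA per cell cannot be told apart.

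Depth ran from 136259 to 1467510 counts per library, and a library held between 836 and 5637 counts of the 70 genes in all. Between 34 and 69 of them had a count in a given library, and 4 had a count in every library. The 5 members with the most counts of a library carried 25.4% to 62.6% of its member counts. Libraries of the same group resembled each other little: over the members, r of log2(CPM + 10) in the 30 pairs of libraries of 1 group ran from 0.00 to 0.56 with a median of 0.34, as a description across genes. The pregnant LE library and the cyclic GE library of mare M stood apart. Ribosomal RNA genes held 0.453% and 0.351% of their counts, the authors' table of 19 libraries lacks both, and each had the largest member share of its group. The 4 epithelial marker genes found of 6 listed summed to 584 to 9836 CPM in LE and GE libraries and to 78.0 to 942 CPM in S libraries, and 6 of 7 fibroblast markers to 352 to 7232 CPM and 5237 to 12771 CPM. The highest epithelial sum was that of cyclic GE of mare M, and the highest fibroblast sum in an epithelium was that of pregnant LE of mare M. In the S libraries, ciliated cell markers summed to 7.80 to 110 CPM, against 310 to 2967 CPM in LE libraries, and the erythrocyte markers HBB and ALAS2 were at 0 in all libraries. Lymphocyte markers summed to 3.49 to 441 CPM in LE and to 0 to 92.5 CPM in GE, macrophage markers to 0 to 250 and 2.57 to 167 CPM, endothelial markers to 0 to 142 and 0 to 388 CPM, and smooth muscle markers to 0 to 297 and 0 to 14.5 CPM. Marker sums are CPM of the counts without ribosomal RNA genes, and their part in the results was not tested.

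Of 85 RefSeq symbols that fit the naming rule, 80 had their gene ID in the count table, and 10 of these were not in the 21-library table. The genes of complex IV isoforms known from muscle, lung or germ cells, COX4I2, COX6A2, COX6B2 and COX7B2, had no count in any library, nor had SDHD, a membrane anchor of complex II. NDUFA11, NDUFA4L2, NDUFB7, NDUFS7 and NDUFV1 had 68, 10, 27, 163 and 28 counts over the 21 libraries and were also left out by the authors' table. The member with the fewest counts, NDUFS8, had 48. The IDs of COX7A1, COX8A, NDUFA2, NDUFA4 and UQCRQ, and those of the 13 subunits encoded by mitochondrial DNA, were not matched in the count table and were not analysed here.

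The first question was how large a share of the counts these genes took in each library. The summed share is the percent of counts, ribosomal RNA genes left out, that fell on the 70 genes. In cyclic LE it was 0.574% in mare B, 0.322% in C, 0.703% in J, 0.465% in M and 0.331% in U. In pregnant LE it was 0.662% in mare B, 0.523% in C, 1.32% in M and 0.578% in U. Each of the 4 mares sampled in both states had the larger share in pregnancy, although the groups overlapped through cyclic mares B and J. In cyclic GE the share was 0.651% in mare B, 0.625% in C, 0.920% in M and 0.558% in U. In pregnant GE it was 0.638% in mare B, 0.399% in C, 0.312% in M and 0.403% in U. Each of these 4 mares had the smaller share in pregnancy, although the groups overlapped through pregnant mare B, above cyclic C and U. In mare B the 95% Wilson intervals of the states, which cover counting error only, also overlapped (0.635% to 0.669% cyclic and 0.611% to 0.667% pregnant).

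Cell type marker sums moved between the states too, in CPM of counts without ribosomal RNA genes. In LE the epithelial sum was higher in pregnancy in 4 of 4 mares, going from 1470 to 3571 in mare B, from 1486 to 1665 in C, from 584 to 3045 in M and from 1231 to 1601 in U. The fibroblast sum was also higher in 4 of 4, going from 1188 to 3005, from 1772 to 1824, from 1661 to 7232 and from 756 to 1085. Smooth muscle markers were lower in 4 of 4 LE mares, ciliated cell markers were higher in 3 of 4, lymphocyte and macrophage markers in 2 of 4 each and endothelial markers in 1 of 4. In GE the epithelial sum was lower in 3 of 4 mares, going from 2054 to 2035 in B, from 9836 to 1127 in M and from 2492 to 1667 in U, and higher in C, from 2529 to 2631. The GE fibroblast sum was higher in mares B and U and lower in C and M. The part of these cell types in the shares was not tested.

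**Figure D1:**
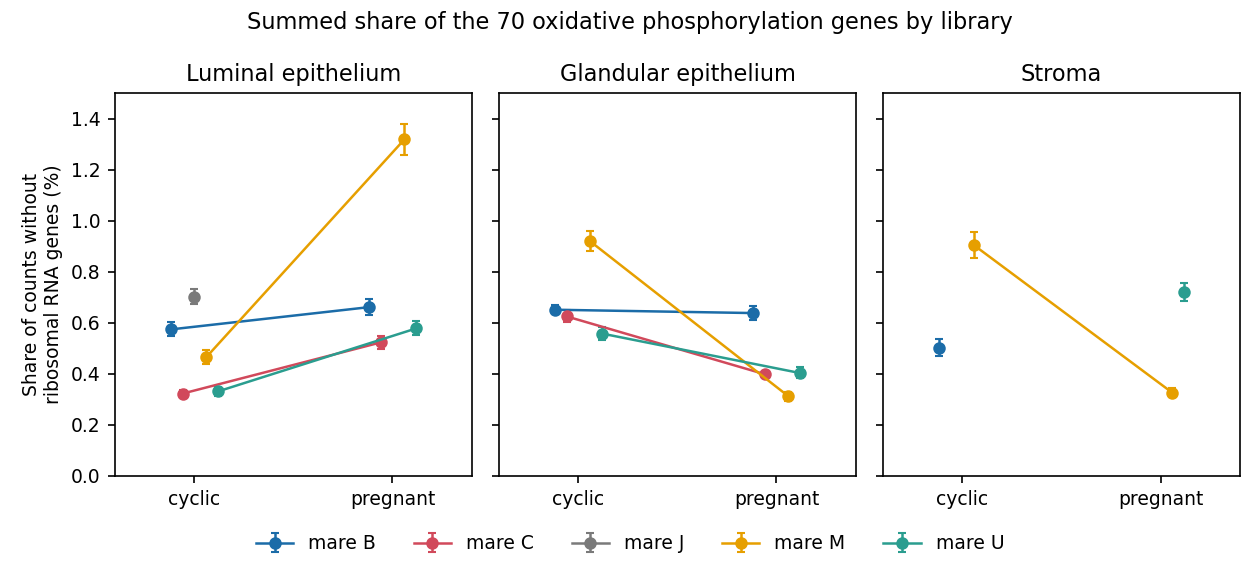
Summed share of the 70 genes in each library, in percent of counts without ribosomal RNA genes (vertical axis), for cyclic and pregnant biopsies of luminal epithelium, glandular epithelium and stroma. Points are libraries coloured by mare, bars are 95% Wilson intervals of counting error, and lines join the states of 1 mare; the 4 lines rise in LE and fall in GE, by little in mare B, and mare M has the steepest line in both, while in percent of all counts the LE ratio of mare B is 0.979.

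The pregnant to cyclic ratio of the share in LE was 1.15 in mare B, 1.62 in C, 2.84 in M and 1.75 in U, with a median of 1.68. In GE it was 0.980 in mare B, 0.637 in C, 0.339 in M and 0.722 in U, with a median of 0.680. No test was made of this sum, because the members were chosen with results of these data known. The order of the 2 epithelia therefore turned with the state. In cyclic biopsies GE held the larger share in 4 of 4 mares, with ratios to LE of 1.13, 1.94, 1.98 and 1.68 in mares B, C, M and U. In pregnant biopsies GE held the smaller share in 4 of 4 mares, with ratios of 0.965, 0.762, 0.236 and 0.697. The Wilson intervals of pregnant mare B overlapped, however (0.611% to 0.667% in GE and 0.632% to 0.692% in LE).

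Ribosomal RNA content moved between the states as well. From cyclic to pregnant LE it went from 23.5% to 35.0% of counts in mare B, from 47.7% to 11.4% in C, from 22.5% to 0.453% in M and from 33.7% to 21.1% in U. In GE it went from 19.8% to 34.7% in mare B, from 31.0% to 16.3% in C, from 0.351% to 51.0% in M and from 8.32% to 35.3% in U. Its part in the shares was not tested. Taken as a percent of all counts, the member share in LE was higher in 3 of 4 mares, with a ratio of 0.979 in mare B, and in GE it was lower in 4 of 4. On TMM-scaled CPM the counts were 4 of 4 higher in LE and 4 of 4 lower in GE, and 1 of 4 GE mares was higher (ratio 1.00) once the 5 members with the most counts were left out.

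In the stroma, the share was 0.501% and 0.904% in the cyclic libraries of mares B and M, and 0.326% and 0.720% in the pregnant libraries of mares M and U. The states overlapped. In mare M, the only one with both, the ratio was 0.360, beside ribosomal RNA contents of 7.36% and 67.1%.

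Split by complex, the LE ratio was above 1 in 4 of 4 mares for complex III (1.16, 1.42, 43.1 and 2.92 in mares B, C, M and U), but in 3 of 4 as a percent of all counts, with mare B at 0.989. The value of mare M rests on a cyclic library with 0.00159% of counts in complex III. Complex I and complex V were higher in mares C, M and U and lower in mare B (0.923 and 0.886), whereas on TMM-scaled CPM both were higher in 4 of 4 mares (mare B at 1.06 and 1.02). Complex IV was higher in mares B, C and U and lower in mare M on all 3 scales. In GE, complex V was lower in 4 of 4 mares on all 3 scales (0.754, 0.621, 0.211 and 0.695 without ribosomal RNA genes). Complex I of GE was lower in 4 of 4 with mare B near 1 (0.993, 0.697, 0.520 and 0.804), and mare B was at 1.01 on TMM-scaled CPM. Complex II was higher in 3 of 4 GE mares and lower in mare C on all 3 scales. Complex III of GE was higher in 3 of 4 mares and lower in mare C (median ratio 1.14), but as a percent of all counts it was higher in 1 of 4, mare M, with a median ratio of 0.864. Complex IV was lower in mares C, M and U of GE and higher in mare B (1.21), which was at 0.987 as a percent of all counts.

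**Figure D2:**
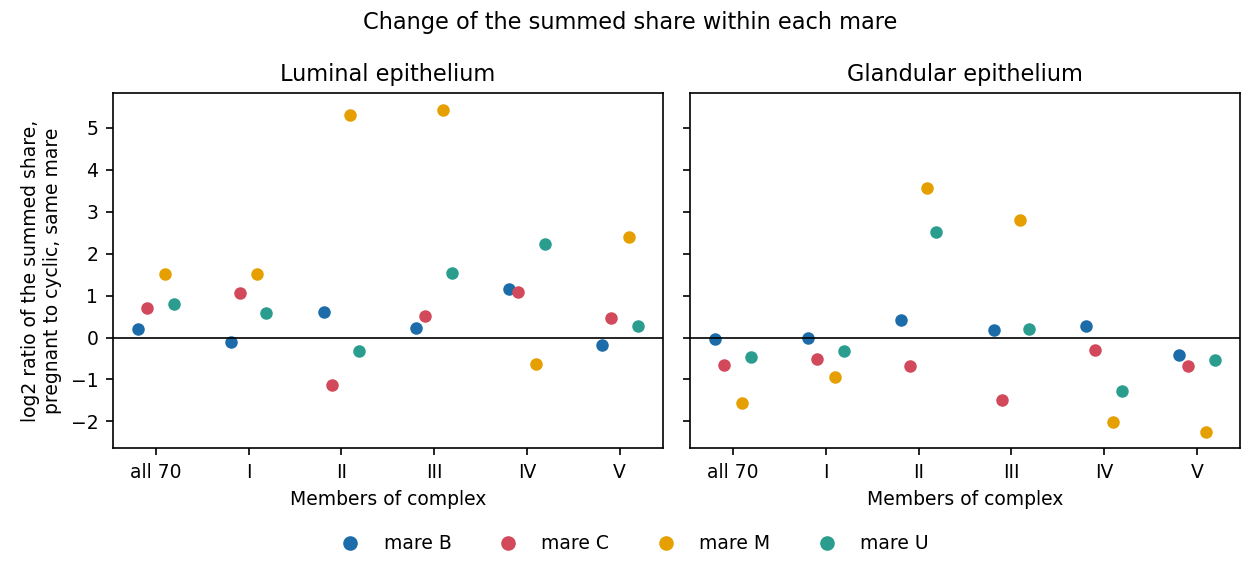
Log2 ratio of the summed share, pregnant to cyclic in the same mare (vertical axis, 0 is no change), in percent of counts without ribosomal RNA genes, for the 70 genes and for the members of each complex, in luminal and glandular epithelium. Points are the 4 mares with both states; in GE the 4 points of complex V lie below 0, and in LE the 4 points of complex III lie above 0, though in percent of all counts mare B of complex III in LE has a ratio of 0.989.

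Gene by gene, no member passed the threshold in any of the 7 comparisons. The test was edgeR's quasi-likelihood F-test over all genes that passed the low-count filter, with a Benjamini-Hochberg adjusted p under 0.05 as the threshold. Values below are log2 fold changes ± SE and levels in CPM of the TMM-scaled library size, which does not leave ribosomal RNA out. They compare a gene between libraries and not one gene with another.

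In pregnant against cyclic LE, 38 of the 70 members could be tested and 0 passed, where 0.437% of the 4344 genes tested did. DESeq2 and limma-voom also called 0. For these methods the share of all genes called is given only for GE against LE and stroma against LE. In the other comparisons their 0 has no such share beside it and is not read as a result about the members. An unadjusted p under 0.05 was reached by 3 members with higher and 0 with lower levels in pregnancy, against 3.55% and 4.26% of all genes. Fold changes were positive in 31 of 38 members and in 48.9% of all genes, with medians of 0.59 and -0.04. These are counts over the members that passed the filter, which favours genes high in 1 group. Without the pregnant library of mare M, 29 of 45 tested members were positive against 48.7% of all 5430 genes, with medians of 0.41 and -0.05. In that fit 2 members with higher and 1 with lower levels had an unadjusted p under 0.05, against 3.43% and 5.91% of all genes, and 0 passed, where 0.681% of all genes did.

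The catalytic beta subunit of the ATP synthase, ATP5F1B (gene ID 100059825), had the smallest p of the members in LE. Its level was 210, 201, 186, 313 and 24.8 CPM in cyclic mares B, C, J, M and U, and 448, 153, 2004 and 46.4 CPM in pregnant mares B, C, M and U. The groups overlapped, 3 of 4 mares were higher in pregnancy, and the library of mare M was far above the rest. The log2 fold change was 1.84 ± 0.74 (edgeR adjusted p = 0.398), and 0.23 without that library. ATP5MG, a membrane subunit of the same enzyme, followed the same library: 106, 45.7, 37.3, 78.2 and 18.2 CPM in cyclic mares B, C, J, M and U against 89.6, 252, 876 and 2.58 CPM in pregnant B, C, M and U. Only mares C and M were higher, and the log2 fold change of 2.42 ± 1.02 (edgeR adjusted p = 0.446) was 0.98 without pregnant M.

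The LE values of 2 members of complex III stayed above 2 without pregnant mare M. UQCRC1 (gene ID 100053786), a core protein of the complex, stood at 45.7, 61.8, 48.5, 0 and 29.7 CPM in cyclic mares B, C, J, M and U. It stood at 79.4, 288, 196 and 232 CPM in pregnant mares B, C, M and U. All 4 pregnant libraries lay above all 5 cyclic ones, which held for 1 of 38 members and for 1.52% of all genes in that direction. The log2 fold change was 2.37 ± 1.24 (edgeR adjusted p = 0.662), and 2.36 without pregnant M. It was named by its counts, and the separation was noticed after its values were seen. UQCRB, which binds ubiquinone, had 4.15, 2.69, 5.59, 3.13 and 33.0 CPM in cyclic mares B, C, J, M and U and 99.9, 0, 232 and 119 CPM in pregnant B, C, M and U. Mares B, M and U were higher and mare C was at 0 in pregnancy, with a log2 fold change of 3.55 ± 1.63 (edgeR adjusted p = 0.525) and 2.91 without pregnant M.

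CYC1, cytochrome c1, was the member of complex III that went the other way in LE. Its level was 70.6, 55.5, 185, 6.25 and 85.9 CPM in cyclic mares B, C, J, M and U and 10.2, 23.6, 0 and 15.5 CPM in pregnant B, C, M and U. All 4 mares were lower, as were 1 of 38 members and 11.7% of all genes, while the groups overlapped through cyclic mare M (log2 fold change -2.72 ± 1.70). Higher in every mare was 1 member, UQCRC1, against 5.64% of all genes.

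The remaining LE values ran from -2.87 ± 1.76 for NDUFS1, the large iron-sulphur subunit of complex I, to 2.24 ± 1.51 for ATP5MC1, of the rotor ring of ATP synthase. In complex I, 9 of 11 tested members were positive with a median of 0.73, and in complex IV 7 of 9 with a median of 0.51. Complex V had 10 of 12 positive and a median of 0.44. The COX4I1 gene, of a regulatory subunit of complex IV, was at 1.50 ± 0.97 with 3 of 4 mares higher, from 0 CPM in pregnant M to 773 CPM in pregnant B. In complex II, SDHA, the flavoprotein that oxidises succinate, was at 0.36 ± 1.30, and SDHB, its iron-sulphur partner, at 2.08 ± 1.30. The SDHB value included 515 CPM in pregnant M, and no other LE library exceeded 77.4 CPM.

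**Figure D3:**
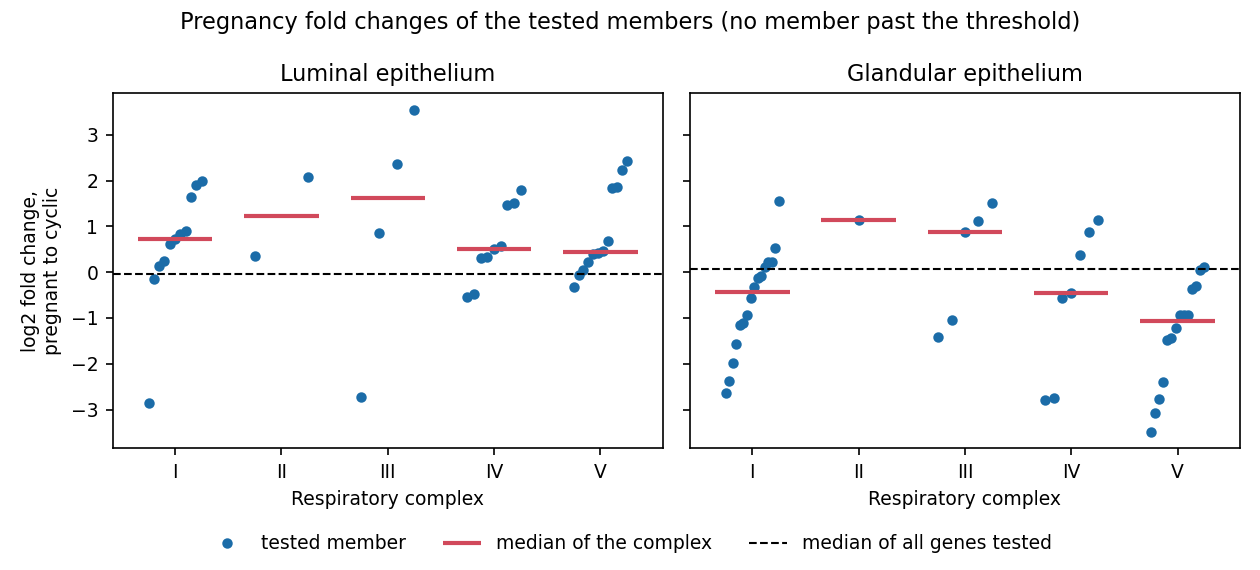
Log2 fold change, pregnant to cyclic (vertical axis), of each tested member by respiratory complex, in luminal epithelium (38 members) and glandular epithelium (43 members). Red bars are medians of the complex and the dashed line is the median of all genes tested (-0.04 in LE, 0.07 in GE); most LE points lie above the line, complex V in GE lies mostly below it, and none of the points passed the adjusted threshold.

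In pregnant against cyclic GE, 43 members could be tested and 0 passed, where 0.0623% of 4816 genes did, and DESeq2 and limma-voom also called 0. An unadjusted p under 0.05 was reached by 0 members with higher and 6 with lower levels in pregnancy, against 1.87% and 5.4% of all genes. Fold changes were negative in 29 of 43 members, with a median of -0.57 against 0.07 for all genes, and positive in 14 of 43 against 52.3% of all genes. By complex, 12 of 14 tested members of complex V were negative (median -1.08), as were 11 of 16 of complex I (median -0.44) and 4 of 7 of complex IV (median -0.45). Complexes II and III had positive medians of 1.14 and 0.88 over 1 and 5 members.

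The fitted values of the members with the smallest p leaned on the cyclic library of mare M. The median of all tested members stayed negative without that library, at -0.70 against 0.06 for all genes. COX7C (gene ID 100630549), a small subunit of complex IV, stood at 134, 86.0, 2716 and 85.8 CPM in cyclic mares B, C, M and U. In pregnant B, C, M and U it stood at 155, 110, 69.6 and 82.1 CPM. Apart from cyclic M the groups overlapped, and 2 of 4 mares were lower. The log2 fold change was -2.75 ± 0.91 (edgeR adjusted p = 0.317) with that library and 0.056 without it. ATP5PF (gene ID 100066379), coupling factor 6 of the ATP synthase stalk, stood at 72.4, 181, 1917 and 25.1 CPM in cyclic mares B, C, M and U. In the pregnant libraries of the same mares it stood at 95.7, 49.9, 32.0 and 2.41 CPM. It was lower in 3 of 4 mares, and its log2 fold change of -3.49 ± 1.03 (edgeR adjusted p = 0.218) went to -1.01 without cyclic M. When the cyclic library of mare U was left out instead, ATP5PF passed (-3.77, edgeR adjusted p = 0.0472), as 1 of 51 members and 0.479% of all genes did in that fit.

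COX6C, another small subunit of complex IV, stood at 27.2, 149, 1071 and 107 CPM in cyclic and 93.5, 37.4, 43.3 and 4.83 CPM in pregnant mares B, C, M and U (-2.80 ± 1.07, edgeR adjusted p = 0.390). Without cyclic M its log2 fold change was -1.04. The other 3 with an unadjusted p under 0.05 were the ATP synthase subunits ATP5MG, ATP5PD and ATP5F1E, named after their values were seen. ATP5PD and ATP5F1E were at -2.39 ± 1.00 and -2.76 ± 1.22, and at -0.42 and -0.80 without cyclic M. Without that library 53 members could be tested, and 1 with higher and 0 with lower levels in pregnancy had an unadjusted p under 0.05, against 2.21% and 0.824% of all 6191 genes. Positive values were found for 17 of 53 members and 52.5% of all genes, with medians of -0.70 and 0.06, and 0 members passed, where 0.0808% of all genes did.

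ATP5MG was the member of GE whose groups did not overlap. Its level was 64.2, 64.1, 600 and 111 CPM in cyclic mares B, C, M and U and 18.2, 47.0, 13.2 and 14.5 CPM in pregnant B, C, M and U. All 4 pregnant libraries lay below all 4 cyclic ones, as for 1 of 43 members and 1.02% of all genes. The log2 fold change was -3.08 ± 1.19 (edgeR adjusted p = 0.403), and -1.77 without cyclic M. NDUFA3, an accessory subunit of complex I, was also lower in 4 of 4 mares, at 235, 111, 54.6 and 287 CPM in cyclic against 50.1, 26.1, 11.3 and 217 CPM in pregnant B, C, M and U. These were the 2 members lower in every mare, against 4.05% of all genes.

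Higher in every GE mare were 3 of 43 members, CYC1, SDHA and COX4I1, against 7.87% of all genes. CYC1 stood at 201, 1.56, 0 and 6.28 CPM in cyclic mares B, C, M and U and at 296, 43.1, 30.1 and 215 CPM in pregnant ones (1.50 ± 1.21). SDHA went from 93.0, 75.1, 6.82 and 14.6 CPM to 150, 87.3, 73.4 and 104 CPM (1.14 ± 1.23). COX4I1 went from 170, 1.56, 20.5 and 39.8 CPM to 203, 47.6, 45.1 and 203 CPM (1.13 ± 1.18). The cyclic values of these 3 were lowest in mare C or M, and the groups overlapped in each.

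Counted within each mare, the GE members did not share 1 direction. On log2(CPM + 10), 22 members were higher and 21 lower in pregnant mare B, 23 and 20 in C, 24 and 18 in M, and 16 and 26 in U. Their median differences were 0.03, 0.24, 0.22 and -0.55, beside -0.23, 0.31, 1.35 and -0.16 for all genes of the same mares. Higher in pregnancy were 51.2%, 53.5%, 55.8% and 37.2% of the members, against 43.8%, 58.1%, 68.7% and 45.0% of all genes tested. In mares B, C and M the smaller summed share of GE in pregnancy came beside more tested members higher than lower, narrowly so in B. The share covers all members on counts without ribosomal RNA genes, whereas the directions are those of tested members on TMM-scaled CPM. In LE, 18 of 38 tested members were higher in pregnant mare B, 23 in C, 22 in M and 26 in U, with medians of -0.05, 1.35, 0.78 and 0.65 beside -0.31, -0.29, -0.37 and -0.20 for all genes. These were 47.4%, 60.5%, 57.9% and 68.4% of the members, against 43.7%, 44.5%, 38.2% and 45.0% of all genes tested.

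**Figure D4:**
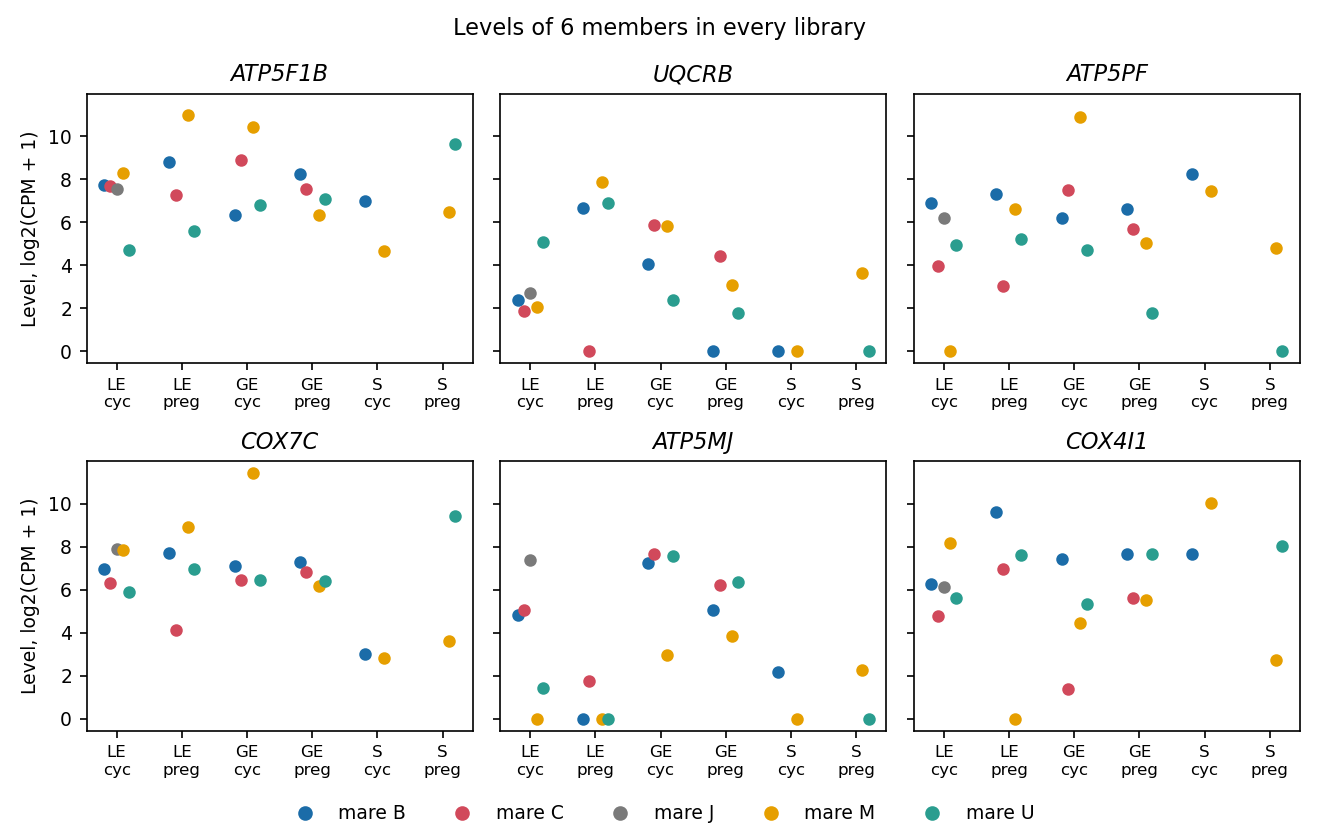
Levels of 6 members in every library as log2(CPM + 1) (vertical axis), in the 6 groups of compartment and state (horizontal axis), coloured by mare. Mare M is the highest point of ATP5F1B in pregnant LE (2004 CPM) and of COX7C and ATP5PF in cyclic GE (2716 and 1917 CPM), and UQCRB is at 0 in 1 of 4 pregnant LE libraries.

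Whether the pregnancy effect differed between the 2 epithelia was tested as an interaction, blocked by biopsy, in the 16 epithelial libraries of the 4 mares with both states. Of 57 members tested 0 passed, where 0.0145% of 6884 genes did, and DESeq2 and limma-voom also called 0. An unadjusted p under 0.05 was reached by 1 member in each direction, against 4.62% of all genes on the positive and 0.915% on the negative side. The value is the signed pregnancy log2 fold change in GE minus that in LE. Its sign does not tell which of them was larger in size. Positive values were found for 21 of 57 members and for 69.1% of all genes, with medians of -0.70 and 1.28. All genes had medians of 0.07 in GE and -0.04 in LE in the separate state comparisons, and the cause of this difference was not tested. Without mare U, 28 of 56 members and 71.5% of all genes were positive, with medians of -0.05 and 1.67. By DESeq2 the medians were -0.72 for members and 0.19 for all genes. CYC1 was the 1 with an unadjusted p under 0.05 on the positive side (6.44 ± 2.77, edgeR adjusted p = 0.867), with the opposite mare-by-mare directions given above. COX6C was the 1 on the negative side (-4.50 ± 2.01, edgeR adjusted p = 0.867), followed by UQCRB (-6.74 ± 3.55, edgeR adjusted p = 0.867).

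In the stroma, with 2 libraries per state, 19 members could be tested between the states and 0 passed, as did 0.0% of 2212 genes. DESeq2 and limma-voom also called 0, and 1 member with a higher level in pregnancy had an unadjusted p under 0.05, and 0 a lower one, against 2.94% and 1.04% of all genes. Fold changes were positive in 10 of 19 members and 55.4% of all genes, with a median of 0.05 against 0.26 for all genes. That member was ATP5F1C, the gamma subunit that forms the rotating shaft of ATP synthase, with 0 counts in both cyclic libraries and 234 and 233 CPM in pregnant mares M and U. Set against 3 counts over the cyclic group, its level was at least 35.3-fold higher in pregnancy (edgeR adjusted p = 0.999).

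ATP5IF1, the inhibitor that stops ATP synthase from running backwards, was at 10.5 and 0 CPM in cyclic stroma of mares B and M and at 102 and 274 CPM in pregnant M and U (4.91 ± 3.41). COX7A2L, which joins complexes III and IV into supercomplexes, was at 69.8 and 335 CPM in cyclic and 13.2 and 0 CPM in pregnant stroma (-4.59 ± 3.34). The states did not overlap for 3 members on the higher side, ATP5F1C, ATP5IF1 and SDHA, and for 3 on the lower side, COX7A2L, ATP5PF and NDUFV3. The shares for all genes were 19.2% and 12.1%, and 3 of 19 members is 15.8%. In cyclic stroma 18 of the 70 members had no count in either library, and in pregnant stroma 11 had none.

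For the compartments, each mare's counts were added up within a compartment, and the fit held mare as a block. In GE against LE, 60 members could be tested and 0 passed, where 6.94% of 7174 genes did. The unadjusted p was under 0.05 for 3 members with higher and 1 with lower levels in GE, against 8.52% and 6.62% of all genes. Limma-voom called 0 members and 4.75% of all genes. DESeq2 called 3 of 63 members with an adjusted p (ATP5MJ, NDUFB11 and UQCR11) and 12.8% of all genes with one. The median fold change was 0.24 for members and 0.25 for all genes, and positive values made up 36 of 60 members and 56.7% of all genes.

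ATP5MJ (gene ID 100629643), a small membrane subunit of ATP synthase, came closest. In cyclic GE it stood at 151, 200, 6.82 and 188 CPM in mares B, C, M and U, and in pregnant GE at 31.9, 72.5, 13.2 and 79.7 CPM. In cyclic LE it stood at 27.0, 32.2, 166, 0 and 1.65 CPM in mares B, C, J, M and U, and in pregnant LE at 0, 2.36, 0 and 0 CPM. Summed over states, GE was higher in 4 of 4 mares, with a log2 fold change of 3.92 ± 1.40 (edgeR adjusted p = 0.0663). The call was made by DESeq2 (3.82) and by edgeR on separate libraries with the biopsy as a block (4.77, adjusted p = 0.0283), a fit that called 1 of 36 members and 6.32% of all genes. The latter fit takes the cyclic and pregnant biopsies of a mare as separate blocks, so its p does not treat the mare as the replicate.

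NDUFB11 (gene ID 100060719), an accessory subunit in the membrane arm of complex I, was lower in GE in 4 of 4 mares (-3.96 ± 1.49, edgeR adjusted p = 0.0917). It had 3.29, 0, 6.82 and 0 CPM in cyclic and 54.7, 0.567, 9.40 and 0 CPM in pregnant GE of mares B, C, M and U. In LE it had 104, 11.6, 0, 106 and 1.65 CPM in cyclic B, C, J, M and U and 28.2, 28.3, 593 and 0 CPM in pregnant B, C, M and U. ATP5IF1 was higher in GE in 3 of 4 mares (1.86 ± 0.73, edgeR adjusted p = 0.121), at 334, 29.7, 532 and 195 CPM in cyclic and 144, 143, 92.2 and 688 CPM in pregnant GE. Its LE levels were 125, 29.6, 76.4, 213 and 0 CPM in cyclic and 17.9, 130, 263 and 5.16 CPM in pregnant libraries. The third member with an unadjusted p under 0.05 on the higher side was ATP5F1A, the alpha subunit of ATP synthase (1.70 ± 0.82, edgeR adjusted p = 0.282), with 4 of 4 mares higher. The per-mare sums of GE and LE did not overlap for 1 member on the higher side, COX7A2L, and 0 on the lower, against 7.05% and 5.21% of all genes (COX7A2L 1.38 ± 0.90, edgeR adjusted p = 0.530).

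The compartment medians depended on the state. Relative to all genes, the members' median of GE against LE was 0.77 higher in cyclic biopsies alone and 1.18 lower in pregnant biopsies alone (log2, difference of medians). This is the same turn as in the summed share, from the same libraries.

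Stroma was compared with each epithelium in 3 mares. Against LE, 38 members could be tested and 0 passed, where 1.74% of 3512 genes did, and no member had an unadjusted p under 0.05, against 3.59% of all genes on the higher and 6.72% on the lower side. Limma-voom called 0 members and 0.0854% of all genes, and DESeq2 called 1 of 37 members with an adjusted p (NDUFB1) and 8.25% of all genes with one. Members had a median of -1.79 against -0.60 for all genes, and 10 of 38 were positive, as were 39.7% of all genes. The sums per mare did not overlap for 1 member higher in stroma, COX4I1, and for 5 lower, SDHB, COX5B, NDUFB3, NDUFAB1 and UQCRC1, against 6.55% and 14.7% of all genes. Without mare M or mare B, the members' median lay above that of all genes instead, by 0.18 and 0.31. SDHB was the member with the smallest p (-4.07 ± 2.70, edgeR adjusted p = 0.736), at 10.5 and 5.99 CPM in cyclic and 15.1 and 0 CPM in pregnant stroma. COX7C (-2.71 ± 2.04) and NDUFB11 (-5.83 ± 4.50) followed, and COX7C had 6.98, 5.99 and 11.3 CPM in 3 stromal libraries but 691 CPM in pregnant mare U.

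Against GE, 40 members could be tested and 0 passed, where 1.3% of 4830 genes did. No member had an unadjusted p under 0.05, against 3.23% of all genes on the higher and 6.71% on the lower side, and DESeq2 and limma-voom called 0. Medians were -1.04 for members and -1.07 for all genes, and 9 of 40 members and 33.3% of all genes were positive. The sums per mare did not overlap for 0 members higher and 1 lower in stroma, COX6A1, against 5.51% and 17.8% of all genes. ATP5IF1 (-2.21 ± 1.33, edgeR adjusted p = 0.623) was lower in stroma in 3 of 3 mares. COX7C (-3.12 ± 1.97) and CYC1 (-4.53 ± 3.20) were the next by p, and CYC1 had no count in either cyclic stromal library.

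**Figure D5:**
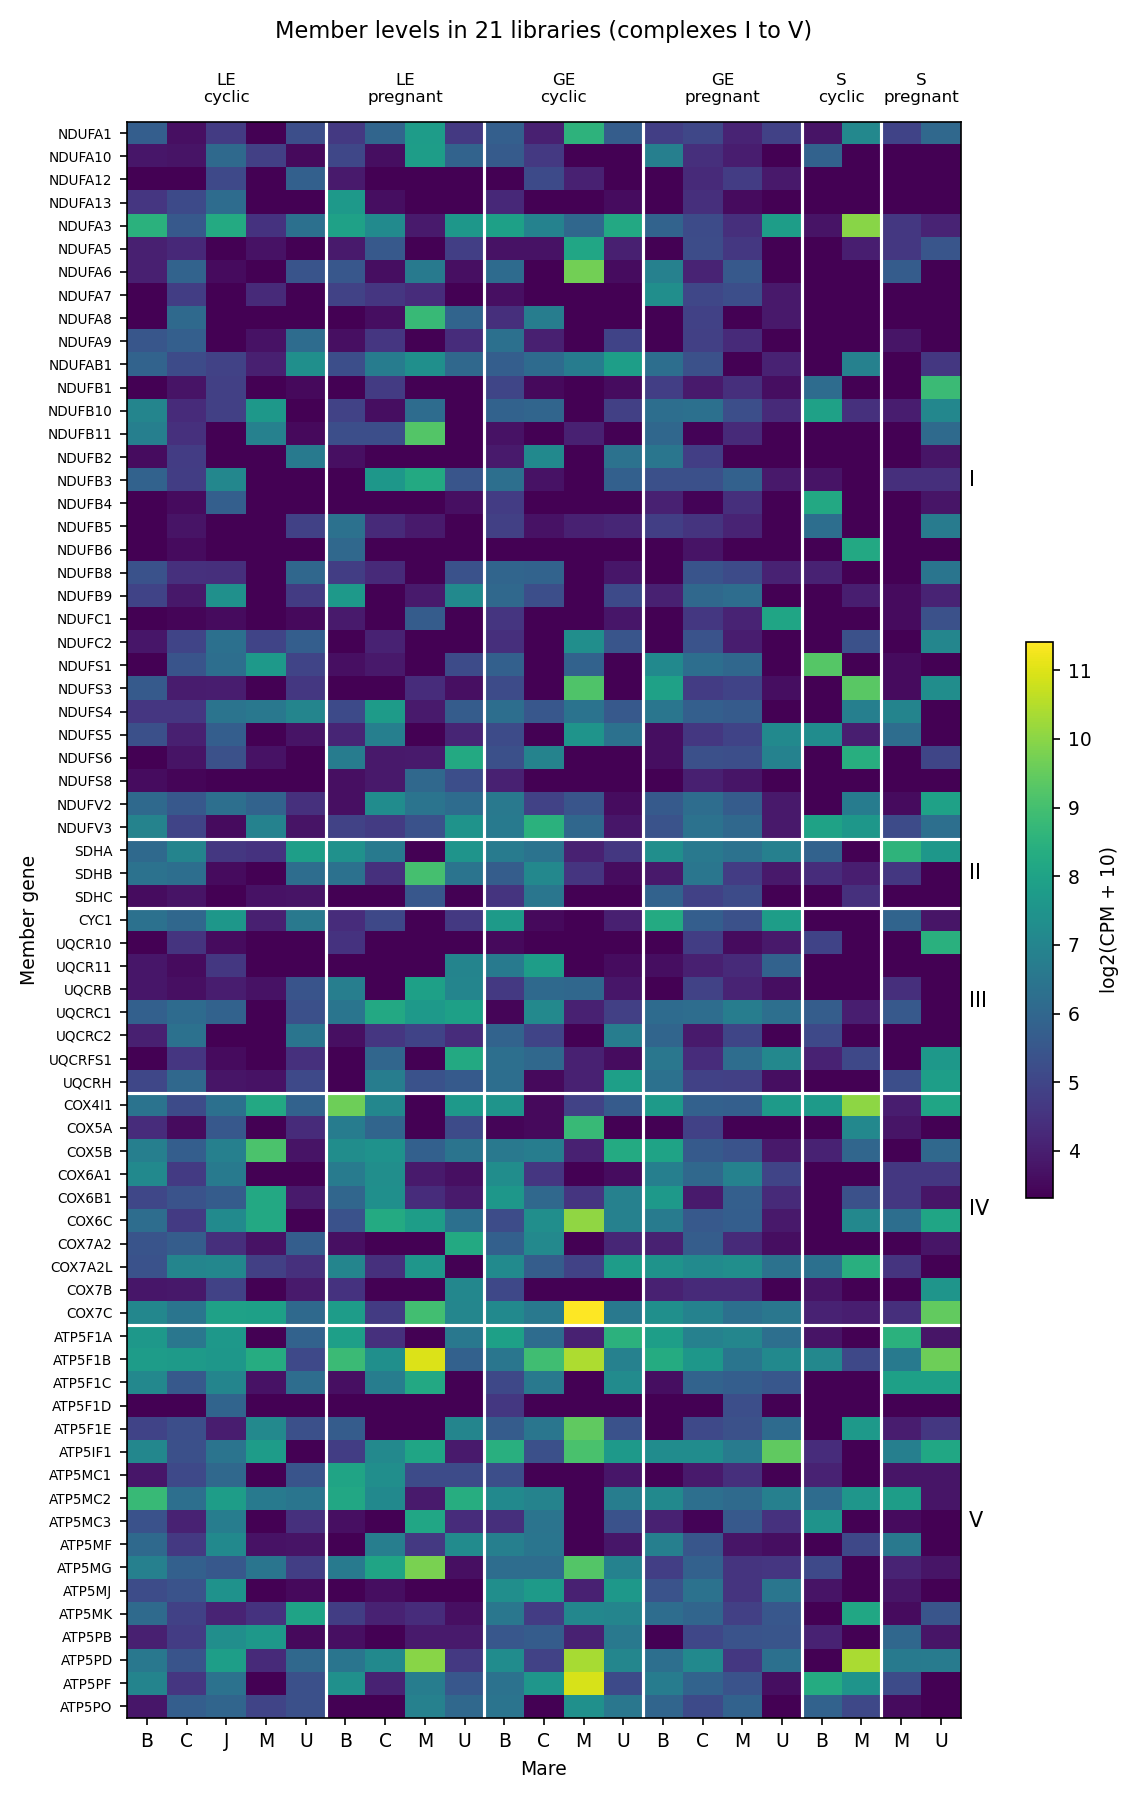
Levels of 69 of the 70 members (rows, ordered by complex I to V) in the 21 libraries (columns, by group and mare), as log2(CPM + 10); white lines separate groups and complexes. Bright cells stand in single libraries such as cyclic GE of mare M (COX7C, 2716 CPM) and seldom run through a group, and 18 members are without a count in both cyclic stromal libraries.

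For the COX4, COX6A and COX6B subunits, the widely expressed isoform was the one with counts. COX6A1 ran from 0 to 149 CPM in LE and from 0 to 146 CPM in GE, COX6B1 from 4.96 to 284 CPM and from 5.10 to 194 CPM, and COX7A2 from 0 to 294 CPM and from 0 to 131 CPM. ATP5MC1, ATP5MC2 and ATP5MC3 encode the same mature ring subunit c with different import sequences. In LE they had group means of 23.5, 176 and 29.7 CPM in cyclic and 113, 185 and 70.2 CPM in pregnant libraries, and in GE 8.25, 85.7 and 29.9 CPM and 4.10, 92.1 and 14.3 CPM. Their SDs were wide, at 22.7, 151 and 40.3 CPM in cyclic LE (n = 5) and 110, 145 and 132 CPM in pregnant LE (n = 4).

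NDUFAB1, the mitochondrial acyl carrier protein, had 51.2 ± 59.4 CPM in cyclic LE (SD, n = 5) and 83.5 ± 54.6 CPM in pregnant LE (n = 4), and 105 ± 80.5 and 26.0 ± 29.8 CPM in GE (n = 4 each). UQCRFS1, the Rieske iron-sulphur protein of complex III, had 5.55 ± 6.86 and 86.5 ± 139 CPM in LE and 33.2 ± 33.5 and 71.0 ± 48.7 CPM in GE. SDHC, a membrane anchor of complex II, had at most 79.8 CPM in any library.

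Other genes of mitochondrial energy supply were followed as lists. Between the states, 0 genes passed in LE, GE or S among assembly factors (45 of 49 listed symbols found, 4, 7 and 0 tested), regulators of mitochondrial biogenesis (14; 3, 3 and 0), citric acid cycle genes without SDH (14; 8, 7 and 2), carriers and cytochrome c (8; 3, 5 and 2), glycolysis (17; 8, 7 and 4) and mitochondrial ribosomal proteins (69; 5, 17 and 2). The list medians in LE and GE were 1.34 and -0.48 for assembly factors, 0.38 and -0.31 for regulators, -0.21 and -0.54 for the citric acid cycle, -0.29 and -1.07 for carriers, -0.60 and -0.47 for glycolysis, and 0.44 and -1.12 for mitochondrial ribosomal proteins. Beside them, all genes had medians of -0.04 and 0.07. The summed share of each list, without ribosomal RNA genes, covers all its genes found and not only those tested. It was higher in pregnancy in 3 LE and 1 GE of 4 mares for assembly factors and for glycolysis. For mitochondrial ribosomal proteins it was higher in 4 and 3, for regulators in 1 and 1. For the citric acid cycle it was higher in 2 and 2, and for carriers in 2 and 0. The gene nearest the threshold was TFAM, which packages and transcribes mitochondrial DNA, at 19.9 ± 16.8 CPM in pregnant against 473 ± 790 CPM in cyclic GE (SD, n = 4 each, log2 fold change -4.42 ± 1.10, edgeR adjusted p = 0.0883). The cyclic SD of TFAM exceeded its mean, as when a single library is far above the rest. Its fit without single libraries is not given here.

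Between compartments, 3 of 12 tested glycolysis genes passed in GE against LE, where 6.94% of all genes did. LDHB, the heart-type lactate dehydrogenase subunit, was higher at 303 ± 110 CPM in GE against 62.8 ± 18.7 CPM in LE (SD over 4 mares, edgeR adjusted p = 0.0102). HK2, an inducible hexokinase, was higher at 53.1 ± 34.4 against 1.78 ± 3.57 CPM (edgeR adjusted p = 0.0366), and PFKP, a phosphofructokinase, was lower at 31.0 ± 20.3 against 177 ± 94.6 CPM (edgeR adjusted p = 0.0155). In S against GE, 1 of 9 glycolysis genes passed, where 1.3% of all genes did. It was PKM, pyruvate kinase, at 316 ± 104 against 5.99 ± 7.62 CPM (edgeR adjusted p = 0.0387). Of 30 tested mitochondrial ribosomal proteins, 1 passed in GE against LE, a smaller share than the 6.94% of all genes. It was MRPS22, at 75.0 ± 88.4 against 1.08 ± 1.43 CPM (edgeR adjusted p = 0.0346). No gene of the other lists passed between compartments.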

How the data were processed

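RNA was sequenced from 21 laser-captured libraries of 3 endometrial compartments of 5 mares; the design text speaks of 6. Per the submitters' processing notes, Trimmomatic 0.32.2 and HISAT2 2.0.3 were used. Not given in the sources used here: counter, genome build, annotation, and the handling of duplicates and shared reads. Raw read counts per gene ID were deposited, together with tables of signal. The authors' signal is the count scaled by 1 factor per library (largest relative deviation 6e-15), and the signal tables served to select the 70 genes and as alternatives. Symbols came from a RefSeq gene table, by gene ID, for 21420 of 24942 IDs (85.9%). Near-identical or overlapping genes are uncertain, and the kit is not stated to mark the strand.

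The members and gene lists were chosen with earlier results of these data known. Counts were tested with edgeR 4.0.16 in R 4.3.3 (two-sided quasi-likelihood F-test, TMM factors, filterByExpr with minimum count 10 and minimum total 15, Benjamini-Hochberg over all genes tested, threshold 0.05). States were compared within a compartment, compartments on sums per mare with mare as block, and the interaction with biopsy as block. The SE was computed as |estimate| over the root of F. It draws on the spread between libraries or per-mare sums as fitted by the model, and is not an SD over mares. Levels are CPM of a joint TMM scaling of the 21 libraries. Named members are, by rule, the 3 with the smallest p of each comparison, the 2 with the most counts of each complex, and listed isoforms and modulators; others are named where a small count singled them out after values were seen. The values of 1 member are not reported here, though it stays in the sums and counts. Intervals (Wilson, 95%) and floors (3 counts) cover counting error only, since amplified reads are not independent molecules. The tests were checked on simulated counts with large fold changes only, so the check does not cover changes as small as the medians above. Alternatives were DESeq2 1.42.0, limma 3.58.1 (voom, and log2 of the deposited signal plus a pseudocount of 1 or 10), RLE factors, other filters, ribosomal RNA genes left out, blocks, a joint fit and leaving out libraries; those on the summed share were added after seeing the data. The mare letters pair the states by animal, per the labels; correlations of same-mare deviations from the group means ran from -0.0449 to 0.0575.

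No sequence of these genes or their promoters was used here.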

Additional observations from a re-analysis of the deposited data

Results flagged for a closer look

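In 26 of 128 groups of 4 or 5 libraries tested, 1 library lay far from the others by Dixon's criterion. Chance gives this in about 1 of 20 groups of normally distributed values, and these values are skewed and often 0, so that rate does not hold for them. Of these, 13 were of mare M. In pregnant LE of mare M the complex I share was 0.329% (next library 0.192%), ATP5MC3 had 268 CPM (10.3), NDUFB11 593 CPM (28.3), SDHB 515 CPM (77.4) and SDHC 36.1 CPM (0). In cyclic GE of mare M the complex V share was 0.442% (0.246%), ATP5MG had 600.4 CPM (111), ATP5PF 1917 CPM (181), COX6C 1071 CPM (149) and COX7C 2716 CPM (134). In cyclic LE of mare M, COX4I1 and COX6B1 had 284 CPM each (74.7 and 41.0), and in pregnant GE of mare M UQCRC1 had 97.8 CPM (67.6).

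In mare B, the complex IV share of pregnant LE was 0.209% (0.135%), and in cyclic GE ATP5MC1 had 28.8 CPM (4.18), COX6A1 146 CPM (14.1) and CYC1 201 CPM (6.28). In mare C, pregnant GE had 47.0 CPM of ATP5MG (18.2) and 81.0 CPM of SDHB (16.9), cyclic GE had 79.8 CPM of SDHC (13.2) and 131 CPM of UQCRC1 (18.8), and pregnant LE had 2.36 CPM of ATP5MJ (0), a single count. In mare U, pregnant GE had 688 CPM of ATP5IF1 (144), pregnant LE 294 CPM of COX7A2 (2.56) and cyclic LE 33.0 CPM of UQCRB (5.59). In mare J, cyclic LE had 166 CPM of ATP5MJ (32.2).

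The summed member share moved in opposite directions in the 2 epithelia: every mare was higher in pregnant LE (median ratio 1.68) and lower in pregnant GE (median ratio 0.680). This difference of the sum was not tested, and in the gene by gene interaction 0 of 57 members passed. The directions are those of counts without ribosomal RNA genes. As a percent of all counts, the LE ratio of mare B was 0.979. In GE of mare B the Wilson intervals of the states overlapped. On TMM-scaled CPM without the 5 members with the most counts, GE was higher in 1 of 4 mares.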

How the results depend on the processing

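No member passed in pregnant against cyclic LE, in the stroma, in stroma against GE or in the interaction under any alternative that was run. Where the share of all genes called by an alternative is not given, its 0 is not read as a result about the members. In pregnant against cyclic GE the number ran from 0 to 1 when each library was left out, with 1 (ATP5PF) without cyclic mare U. In GE against LE it was 0 by the main test, 3 by DESeq2 (ATP5MJ, NDUFB11, UQCR11) and 1 on separate libraries with the biopsy as block (ATP5MJ). In stroma against LE it was 0, and 1 by DESeq2 (NDUFB1). The cause of these differences was not tested. Without the low-count filter, edgeR took the same 15051 genes as DESeq2 in GE against LE and called 0 members. In stroma against LE both took 12518 genes, and edgeR without the filter called 0 members. DESeq2 gave an adjusted p to 9215 and 4266 of these genes. With the mare as replicate block, which pairs the states of an animal, 0 members passed in LE and 0 in GE. The share of all genes called with this block is not given here. Paired log2 fold changes were 1.11 for ATP5F1B and 2.92 for UQCRC1 in LE, and -0.76 for COX7C and -2.51 for ATP5PF in GE, and the block changed no call of a member. No paired analysis was possible for the stroma because its states share mare M only. The COX7C value in GE was -3.52 with RLE factors and ran from -2.99 to 0.0562 when each library was left out. Its sign turned without cyclic mare M (0.0562). The difference between the members' median and that of all genes was 0.36 to 1.49 in LE (above 0 in 19 of 19 alternatives), -1.11 to -0.37 in GE (above 0 in 0 of 18) and -2.66 to -0.91 in the interaction (0 of 10). It took both signs in the stroma (-3.66 to 0.68), in GE against LE (-1.18 to 0.77), in stroma against LE (-1.48 to 0.31) and in stroma against GE (-0.90 to 0.21). RLE factors moved the median of all genes in LE by over 0.1, from -0.04 to 0.11. Depth limits single members: in LE 32 and in GE 27 of the 70 had too few counts for a test.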
